A study of Danio rerio with 12 samples.

Results

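Matrix metalloproteinases (MMPs) and tissue inhibitors of metalloproteinases (TIMPs) were examined in macrophage-lineage cells from the heads of larval zebrafish, with and without an acute injury of the brain. The set lists 8 genes, *mmp9*, *mmp13a*, *mmp14a*, *mmp14b*, *mmp2*, *mmp25b*, *timp2a* and *timp2b*, of 22962 genes in the table. Of these, 7 were found by gene name. The gene *mmp25b* stands in the table under another name, was matched through its gene identifier and is described with the others. The set was chosen with the measured values of the injury comparison known, so the values of its genes between the groups are given as a description, and where a gene is said to be called in the fit across all genes, this too is only a description.

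All larvae carried the *mpeg1*:GFP transgene, in which the *mpeg1* promoter labels microglia and peripheral macrophages, and were taken at 4 dpf. In injured larvae the optic tectum was pierced with a metal pin, and sham larvae served as controls. GFP+ cells were sorted from dissociated heads at 2 hpi, with about 180 larvae pooled per sample, so each library averages many animals and both cell types. Of 6 samples per group, 3 at 2 hpi were excluded by the authors, which left sham replicates 1 to 6 and 2 hpi replicates 1, 2 and 4. The excluded samples had high duplication and low mapping, and stood apart from the rest in a principal component analysis of expression. As expression was part of this choice, the spread at 2 hpi may be understated.

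MMPs are zinc endopeptidases that cut proteins of the extracellular matrix, and also release or inactivate chemokines, cytokines and receptors. They are made as inactive proenzymes, and become active once the prodomain is removed by furin-like convertases, by plasmin or by other MMPs. TIMPs bind the active site and block it, so the balance of MMP and TIMP is what is usually considered in a tissue. In the mammalian brain, Mmp9 from leukocytes and glia is known for its action on the basement membrane and the tight junctions of blood vessels after injury.

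Values are CPM, which put the reads of a gene on one scale for libraries of any depth, and which the authors had adjusted with TMM factors for differences in composition. Sham libraries held 6868772 to 8180104 reads assigned to genes, 2 hpi libraries held 6754699 to 7156275, and 3 reads, taken as the limit of detection, equalled 0.349 to 0.466 CPM. The transgene's own promoter gene *mpeg1.1* lay at 2299 to 2731 CPM in sham and 2568 to 2749 CPM at 2 hpi. All 10 macrophage-lineage markers listed were at 96.2 CPM or more in every library, and all 10 microglial markers at 119.9 CPM or more. The neutrophil markers *npsn* and *mpx* were present in every library as well. *npsn* was at 3486 to 4662 CPM in sham and 3227 to 3937 CPM at 2 hpi, and *mpx* at 1920 to 2629 and 1426 to 2104 CPM. Of the other neutrophil markers listed, *cxcr1* was not found, and *cxcr2* was at 0 to 2.94 CPM in sham and 0.155 to 2.43 CPM at 2 hpi. The labels name no separate cultures or clutches behind the replicates, so the spread between libraries may be partly technical. Since these are bulk libraries, more cells of a type and more RNA per cell cannot be told apart.

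The secreted enzyme *mmp9* was the member with the largest difference between the groups. Its gene encodes gelatinase B, which cuts denatured collagen and basement membrane collagen. The level of *mmp9* (ENSDARG00000042816) was 267.8, 513.6, 459.1, 324.4, 363.7 and 575.9 CPM in sham libraries 1 to 6, and 1900.3, 2160.9 and 1487.8 CPM in 2 hpi libraries 1, 2 and 4. The groups did not overlap, and the lowest library at 2 hpi lay 2.58-fold above the highest sham library. Mean levels were 417.4 ± 118 CPM (SD, n = 6) and 1849.7 ± 339 CPM (SD, n = 3), a ratio of 4.43. On the log2(CPM + 0.5) scale, on which all log2FC values here were fitted, the difference was 2.18 with a standard error (SE) of 0.18 and a 95% interval of 1.81 to 2.55. These values rest on 2187 to 4416 reads per sham library and 10147 to 13917 reads per 2 hpi library. Counting error alone would give a coefficient of variation of 1.77% against the 28.4% seen among sham libraries. Here and below, counting error takes every read as independent. As the cDNA was amplified before sequencing, it is a lower limit.

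The collagenase gene *mmp13a*, whose product cuts fibrillar collagen, was higher at 2 hpi by a smaller factor. Levels of *mmp13a* (ENSDARG00000012395) were 1569.5, 2073.6, 2068.0, 1767.8, 1731.2 and 3006.2 CPM in sham libraries 1 to 6, and 3753.1, 3674.3 and 2822.0 CPM at 2 hpi. The groups overlapped by one library, since sham 6 lay above 2 hpi library 4, while the other 2 libraries at 2 hpi lay above every sham library. The means were 2036.1 ± 515 CPM (SD, n = 6) and 3416.5 ± 516 CPM (SD, n = 3), a ratio of 1.68, with a log2FC of 0.77 (SE 0.15, 95% interval 0.46 to 1.08). Without sham 6, the log2FC was 0.89. It was 0.69 without 2 hpi replicate 1, 0.71 without 2 hpi replicate 2, and 0.65 with library size alone.

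**Figure D1:**
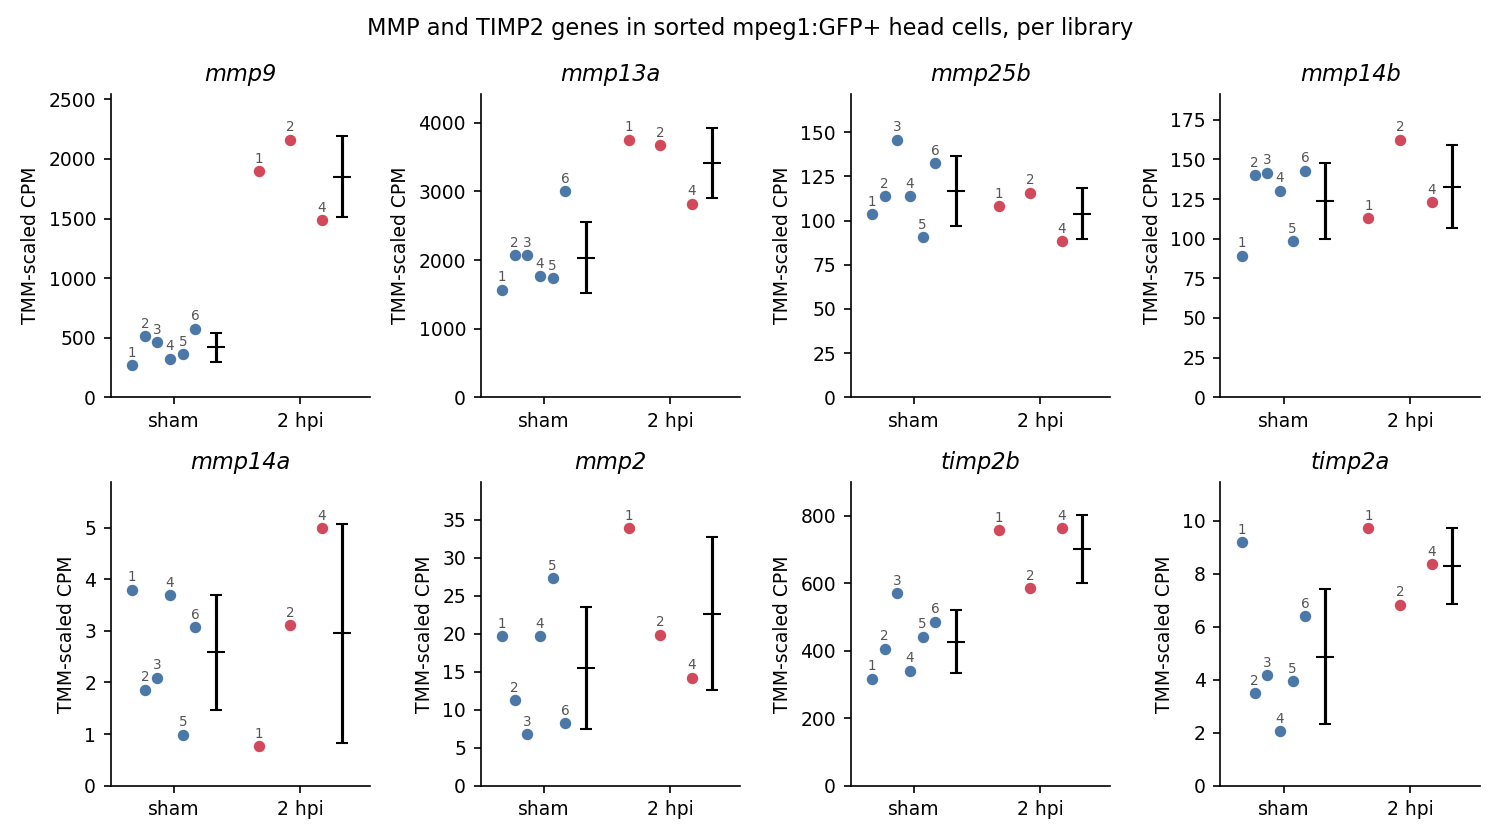
TMM-scaled CPM of the 8 genes (vertical axes, each starting at 0) in every sham (blue) and 2 hpi (red) library, numbered by replicate, with the mean and SD of each group beside the points. The 2 hpi libraries lie above all sham libraries for *mmp9* (lowest 1487.8 against 575.9 CPM) and, by a narrow margin, *timp2b* (584.4 against 570.7 CPM), whereas the groups overlap for the other genes.

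The membrane-type genes and *mmp2* differed less from sham, or by less than their spread. The product of *mmp25b* belongs to the MMPs that a lipid anchor holds at the cell surface, and its human counterpart is known from leukocytes. Levels of *mmp25b* (ENSDARG00000010556) were 103.5, 113.6, 145.7, 113.7, 90.7 and 132.6 CPM in sham libraries 1 to 6 and 108.0, 115.7 and 88.1 CPM at 2 hpi. The 2 hpi values lay within or just under the sham range, and *mmp25b* was the only one of the 8 genes whose log2FC was below 0 (-0.16, SE 0.15, 95% interval -0.48 to 0.16).

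The *mmp14* pair encodes transmembrane MMPs, which in mammals activate the proenzyme of MMP2 at the cell surface. The level of *mmp14b* (ENSDARG00000008388) was 89.4, 139.9, 141.8, 130.3, 98.6 and 142.9 CPM in sham and 113.1, 162.4 and 123.0 CPM at 2 hpi. Only 2 hpi library 2 lay above the sham range, and the log2FC was 0.11 (SE 0.17, 95% interval -0.24 to 0.45). Its sign depended on the scaling and on that library: the log2FC was -0.01 with library size alone and -0.05 without 2 hpi replicate 2. The other copy, *mmp14a* (ENSDARG00000002235), was read only 7 to 31 times in a sham library, at 0.986 to 3.80 CPM, and 5 to 34 times at 2 hpi, at 0.759, 3.11 and 4.99 CPM. The lowest and the highest of all 9 libraries were both from 2 hpi, and the 95% interval of its log2FC, -1.11 to 1.14, covered both directions. Its coefficient of variation was 43.3% in sham and 71.8% at 2 hpi, where counting error would give 22.5% in sham.

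Gelatinase A, encoded by *mmp2*, is in mammals mostly a product of fibroblasts and other stromal cells. In sham libraries 1 to 6, *mmp2* (ENSDARG00000017676) was at 19.7, 11.3, 6.79, 19.7, 27.3 and 8.22 CPM, and at 2 hpi it was at 33.9, 19.9 and 14.2 CPM. The sham libraries spread widely, with a coefficient of variation of 51.7% where counting error would give 9.21%, and of the 2 hpi libraries only 1 lay above them. The log2FC was 0.61 (SE 0.37, 95% interval -0.16 to 1.38). The 10 fibroblast markers, which include *col5a1*, *col1a1a*, *dcn* and *lum*, summed to 119 to 195 CPM in sham and 142 to 187 CPM at 2 hpi. The largest part came from *col5a1*, with a sham median of 75.6 CPM where the median sum was 159 CPM. Only 6 of the 10 had enough reads for the test. Of these 6, 0 were called by limma, edgeR, DESeq2 or limma-voom, and 0 had an unadjusted p under 0.05. Among all 16085 genes tested, limma called 443, and 2825 had an unadjusted p under 0.05. The marker *fbln1* was at or under the limit of detection in every library.

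Both inhibitor genes encode counterparts of TIMP2, which blocks MMPs and, bound to MMP14, also brings the MMP2 proenzyme to its activator. The level of *timp2b* (ENSDARG00000075261) was 316.7, 405.9, 570.7, 341.2, 441.6 and 485.8 CPM in sham libraries 1 to 6, and 758.0, 584.4 and 762.8 CPM at 2 hpi. All 3 injury libraries lay above all sham libraries, but library 2 did so by only 1.02-fold over sham 3. This margin depended on the scaling, as *timp2b* had 3764 of 6754699 reads in that library and 4368 of 7840289 reads in sham 3. The means were 427.0 ± 94.1 CPM (SD, n = 6) and 701.7 ± 102 CPM (SD, n = 3), a ratio of 1.64, and the log2FC was 0.73 (SE 0.15, 95% interval 0.42 to 1.05).

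The second copy, *timp2a* (ENSDARG00000061226), was much lower in reads, with 15 to 75 per sham library and 44 to 64 at 2 hpi. Its levels were 9.18, 3.49, 4.18, 2.05, 3.94 and 6.41 CPM in sham and 9.72, 6.83 and 8.36 CPM at 2 hpi. Sham 1 lay within the range of the injury libraries and the other 5 sham libraries lay below it. The log2FC was 0.83, but with an SE of 0.42 its 95% interval ran from -0.05 to 1.70. Whether reads were shared between the copies of the *mmp14* or the *timp2* pair was not tested.

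In the fit across all 16085 genes tested, 3 of the 8 genes, *mmp9*, *mmp13a* and *timp2b*, were called higher at an FDR below 0.01, 0 were called lower and 5 were not called. Among all genes tested, 2.13% were called higher and 0.628% lower. The 2 genes without overlap, *mmp9* and *timp2b*, stand beside 5.73% of all genes for which every 2 hpi library lay above every sham library. The median log2FC of the 8 genes was 0.67 and that of all genes tested -0.02. Since the set was chosen on this contrast, nothing is read from these counts. As a further description, the call of *mmp13a* was lost without 2 hpi replicate 1 (log2FC 0.69), without 2 hpi replicate 2 (0.71) and with no filter on low counts (0.77). That of *timp2b* was lost with no such filter (0.73), and without 2 hpi replicate 1 (0.67), 2 hpi replicate 4 (0.67) or sham replicate 4 (0.68).

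Ratios of pairs of genes within a library do not depend on how libraries are scaled to each other. As transcript lengths were not used, only the change of such a ratio is compared and not its level. The log2 ratio of *mmp9* to *mmp13a* was -2.55 to -2.01 in sham and -0.98 to -0.77 at 2 hpi, a shift of 1.41 with no overlap. Enzyme and inhibitor shifted apart for *mmp9* and *timp2b*, whose log2 ratio was -0.31 to 0.34 in sham and 0.96 to 1.89 at 2 hpi, a shift of 1.45 with no overlap. The log2 ratio of *mmp13a* to *timp2b* overlapped between the groups, at 1.86 to 2.63 in sham and 1.89 to 2.65 at 2 hpi, a shift of 0.03.

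Against *timp2b*, the membrane-type *mmp14b* shifted the other way. Its log2 ratio was -2.16 to -1.39 in sham and -2.74 to -1.84 at 2 hpi, a shift of -0.63, with 1 library at 2 hpi inside the sham range. The ratio of *mmp2* to *timp2b* covered -6.29 to -3.97 in sham and -5.70 to -4.46 at 2 hpi, so the injury libraries lay inside the sham range. For *mmp25b* over *mmp9*, the values were -2.17 to -1.37 in sham and -4.22 to -4.07 at 2 hpi, and this shift of -2.34 was the largest of the 6 ratios. These ratios use the same contrast as the choice of the genes and were not tested.

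**Figure D2:**
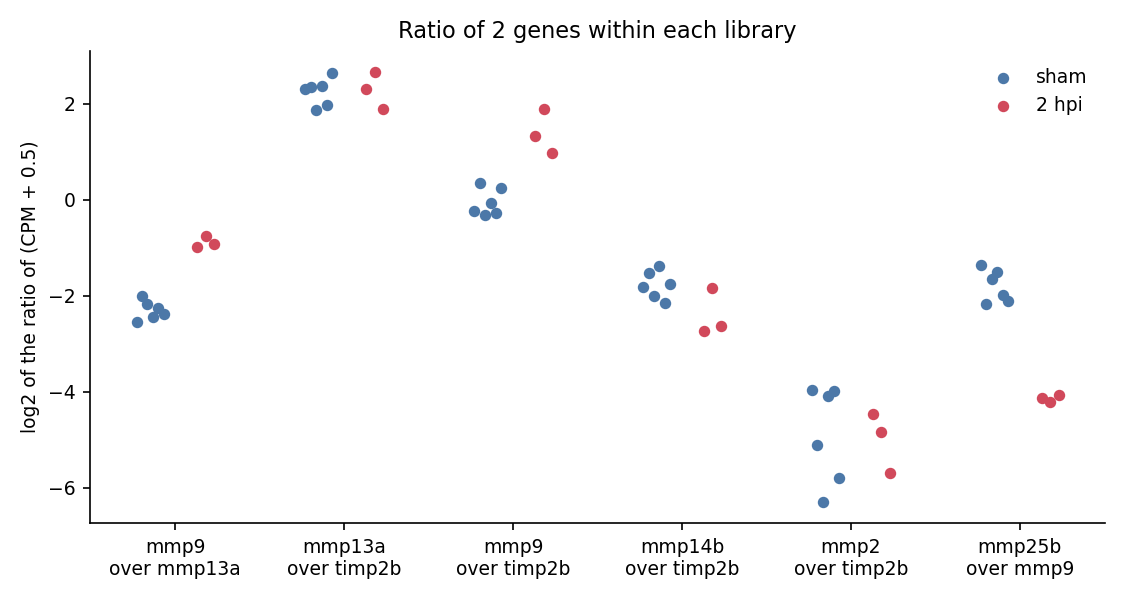
Log2 ratio of (CPM + 0.5) for 6 pairs of genes (vertical axis) within each sham (blue) and 2 hpi (red) library, 1 point per library. The groups separate where *mmp9* is one of the pair, with shifts of 1.41, 1.45 and -2.34, and overlap for the 3 other pairs, among which *mmp13a* over *timp2b* shifts by 0.03.

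Cells other than microglia and macrophages can express these genes, and neutrophils are known for *mmp9*. The listed neutrophil markers summed to 7032, 6804, 6528, 6738, 6129 and 8011 CPM in sham libraries 1 to 6, and to 6086, 6961 and 5361 CPM at 2 hpi, so no 2 hpi library lay above the sham range. Most of this sum came from *npsn* and *mpx*, with sham medians of 3863 and 2157 CPM where the median sum was 6771 CPM. Limma called 443 of all 16085 genes tested, and 2825 of them had an unadjusted p under 0.05. Of 11 neutrophil markers tested, 0 were called by limma, edgeR, DESeq2 or limma-voom and 3 had an unadjusted limma p under 0.05. Their median log2FC was -0.02, and the mean log2 level of the list was higher by 0.10 at 2 hpi (2-sided exact permutation test over 84 splits, p = 0.333, 0.857 after Benjamini-Hochberg adjustment over the 8 marker lists). Of these markers, 5 had a log2FC above and 6 below 0, from -0.33 for *mpx*, which encodes myeloperoxidase, to 0.75 for *scpp8*, at 9.80 to 13.9 CPM in sham and 15.7 to 23.8 CPM at 2 hpi. With library size alone, the difference of the list was -0.02. Sham 6, the library with the most *mmp9* and *mmp13a* among the sham libraries, also had the highest neutrophil sum. Among the sham libraries it had the highest fibroblast and keratinocyte sums as well, at 195 and 97.5 CPM.

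The macrophage-lineage list itself was higher at 2 hpi by 0.15 on the log2 scale, which did not hold after adjustment (exact permutation test, p = 0.0238, adjusted p = 0.190, where 0.0119 is the smallest p the design allows). The difference depended on the scaling, and was 0.03 with library size alone. Of its 10 genes 1 was called, *spi1b*, a transcription factor of myeloid cells, with a log2FC of 0.50. The microglial list was higher by 0.19 (exact permutation test, p = 0.0952, adjusted p = 0.381), and by 0.07 with library size alone. Of this list 1 gene was called, *slc7a7*, an amino acid transporter required for microglia in zebrafish (log2FC 0.85). Both lists of 10 stand beside 2.13% of all genes tested that were called higher. Fibroblast, endothelial, neuronal, radial glial and keratinocyte lists differed by -0.17 to 0.21 with an adjusted p of 0.857 each, and their sums overlapped between the groups. The part of these lists in the values of the MMP and TIMP genes was not tested, other than in the sham libraries alone.

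How the genes vary together within the 6 sham libraries does not use the 2 hpi libraries. The sham levels and their spread were still part of the comparison on which the genes were chosen. Over 28 pairs of genes, 2 had an unadjusted p under 0.05 for Pearson's r and 0 an adjusted one. These 2 pairs, picked for their p, are described below. By rho, whose p was not adjusted, *mmp14b* also had an exact p under 0.05 with *mmp13a* (0.94), *mmp9* (0.89) and *mmp2* (-0.89). The levels of *mmp9* and *mmp13a* went together (r = 0.89, exact permutation p = 0.0139, adjusted p = 0.194; rho = 0.94, exact p = 0.0167), and r was 0.93 without the 2 libraries farthest from the median of *mmp9*. Sham 6 was the highest and sham 1 the lowest for both. The opposite held for *mmp2* and *mmp25b* (r = -0.94, exact permutation p = 0.00417, adjusted p = 0.117; rho = -0.94, exact p = 0.0167), with r = -0.85 without the 2 libraries farthest from the median of *mmp2*. Sham 5 had the most *mmp2* and the least *mmp25b*, and sham 3 the reverse.

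Between the 8 genes and the neutrophil, fibroblast and microglial lists, 24 correlations over the sham libraries ran from -0.59 to 0.69, with 0 unadjusted p under 0.05 and a smallest adjusted p of 0.960. They used the mean log2 level of a list, in which every detected marker counts alike, low ones included. Correlations with the summed CPM, which a few high markers dominate, were not computed and can differ. For *mmp9* and the neutrophil list, r was 0.07 (exact permutation p = 0.90) and rho -0.03, but r was 0.999 without the 2 libraries farthest from the median of the list, so the value rests on those libraries. All points within these relations share the scaling and the depth of their library.

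**Figure D3:**
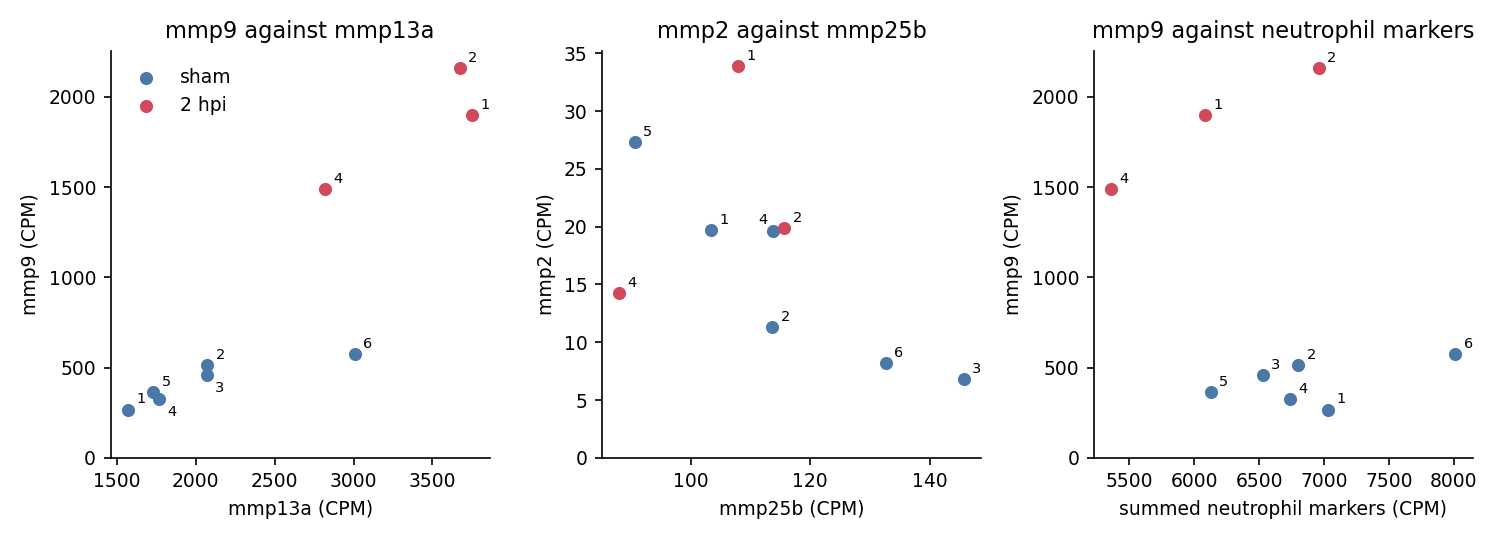
CPM of *mmp9* against *mmp13a*, of *mmp2* against *mmp25b*, and of *mmp9* against the summed CPM of the neutrophil markers, 1 point per library, sham in blue and 2 hpi in red, numbered by replicate (horizontal axes do not start at 0). Among the 6 sham libraries r on the log2 scale is 0.89 in the left panel and -0.94 in the middle one. In the right panel, neutrophil sums are 6129 to 8011 CPM in sham and 5361 to 6961 CPM at 2 hpi. No r was computed for these sums, as the r values of the text use the mean log2 level of the list. The sums of 2 hpi libraries 1 and 4 lie below every sham sum, so levels of *mmp9* at like sums cannot be compared for them.

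The other MMP genes that were found were low in these cells, and those not found have no level here. Of all genes, 23 had a name that starts with mmp or timp, and not all of these were listed. Of 19 other MMP genes listed, 11 were found and 6 had enough reads for the test. Of these 6, 0 were called by limma, edgeR, DESeq2 or limma-voom, with 0 at an unadjusted p under 0.05. Over all 16085 genes tested, limma called 443, and 2825 had an unadjusted p under 0.05, so little can be read from 0 of 6. The 5 untested genes did not exceed 3.14 CPM in any library. Of the 6 tested, 3 had a log2FC above and 3 below 0, with a median of -0.07. The only one with a mean of at least 5 CPM, *mmp28*, which encodes epilysin, was at 5.26, 4.89, 7.97, 6.69, 3.38 and 4.87 CPM in sham and 5.47, 5.90 and 1.47 CPM at 2 hpi (log2FC -0.47, SE 0.44). *mmp13b*, the second zebrafish copy beside *mmp13a*, lay at 3.38 to 8.10 CPM in sham and 2.64 to 3.52 CPM at 2 hpi, with a log2FC of -0.68 (SE 0.41); it is named here because it is the paralogue of a member.

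Among other TIMPs and MMP inhibitors, 12 were listed, 5 found and 4 tested. Of these 4, 0 were called by limma, edgeR, DESeq2 or limma-voom. Over all 16085 genes tested, limma called 443, and 2825 had an unadjusted p under 0.05. The median log2FC of the 4 inhibitor genes was -0.48, and 1 of them had an unadjusted limma p under 0.05. That gene was *SPOCK1*, named after its values were seen, at 0.735 to 5.93 CPM in sham and 0 to 1.03 CPM at 2 hpi. *reck*, which encodes a membrane-anchored MMP inhibitor, covered nearly the same range in both groups, 66.8 to 102.6 CPM in sham and 66.1 to 106.0 CPM at 2 hpi (log2FC 0.09, SE 0.17), and *spock3* had a log2FC of 0.15 (SE 0.22). *timp3* was listed in the table but reached at most 0.440 CPM.

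The related ADAM and ADAMTS families, which include the sheddases of the cell surface, had 22 tested genes of 30 listed. Of these, 2 were called higher, 0 lower, and 20 not called, with a median log2FC of -0.07. The shares over all genes tested were 2.13% higher and 0.628% lower. *adam8a*, whose mammalian counterpart is a sheddase of leukocytes, was at 110.6, 112.1, 154.0, 99.4, 108.1 and 178.1 CPM in sham and 274.7, 289.6 and 227.6 CPM at 2 hpi. All injury libraries lay above all sham libraries, and *adam8a* rose with a log2FC of 1.08 (SE 0.16, limma FDR = 1.61e-04).

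*adam28*, which encodes another member of the family, was at 44.2, 62.8, 49.0, 51.6, 61.3 and 57.9 CPM in sham and 124.5, 186.0 and 121.3 CPM at 2 hpi. These groups did not overlap either, and *adam28* rose with a log2FC of 1.38 (SE 0.17, limma FDR = 1.10e-05). The lowest log2FC in this family at a mean of 5 CPM or more was that of *adam10b* (-0.71, SE 0.50), which was not called.

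Genes that act on MMP activation, among them convertases, the plasminogen activator system and cathepsins, had 21 tested of 30 listed. Of these, 3 were called higher, 0 lower and 18 not called, with a median log2FC of 0.20, where 17 lay above and 4 below 0. Among all genes tested, 2.13% were called higher and 0.628% lower, and the median was -0.02. The count above 0 was not repeated with library size alone, where the median of all genes moved by -0.11. *plaua*, which encodes a urokinase plasminogen activator, was at 10.5, 13.4, 18.9, 11.9, 17.9 and 17.7 CPM in sham and at 41.8, 52.8 and 47.4 CPM at 2 hpi. It rose with a log2FC of 1.65 (SE 0.24, limma FDR = 9.47e-05), and no library of one group reached the other.

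Also called was *ctss2.1*, which encodes a cathepsin S, a cysteine protease of the endolysosome. It was at 175.7, 201.3, 292.9, 206.0, 158.9 and 219.8 CPM in sham and at 576.6, 703.5 and 511.9 CPM at 2 hpi. No library of one group reached the other, and *ctss2.1* rose with a log2FC of 1.53 (SE 0.15, limma FDR = 6.05e-07). Its related copy *ctss2.2* was at a mean of 600 CPM in sham and 633 CPM at 2 hpi (log2FC 0.07, SE 0.12), and reads shared between the 2 copies were not resolved here. The lowest in this list with a mean of at least 5 CPM was *plat*, the tissue plasminogen activator (log2FC -0.10, SE 0.36), which was not called.

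Among genes of the matrix that MMPs can cut, 27 of 36 listed were tested, 1 was called higher, 0 lower and 26 not called, with a median log2FC of -0.06. *vcanb*, which encodes a versican, a large proteoglycan, was at 45.5, 43.4, 52.9, 63.5, 45.6 and 76.9 CPM in sham and at 219.3, 94.2 and 252.8 CPM at 2 hpi. Library 2 lay far below the other 2 libraries at 2 hpi but above every sham library, and *vcanb* rose with a log2FC of 1.69 (SE 0.24, limma FDR = 5.57e-05). The collagen gene *col6a1* had the lowest log2FC with a mean of at least 5 CPM (-0.59, SE 0.35) and was not called. Over the 5 lists together, 6 of 80 tested genes were called higher and 0 lower, with a median log2FC of 0.07, beside 2.13% and 0.628% and a median of -0.02 over all genes tested. These lists were written from knowledge of the families, but with earlier results of these data known.

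**Figure D4:**
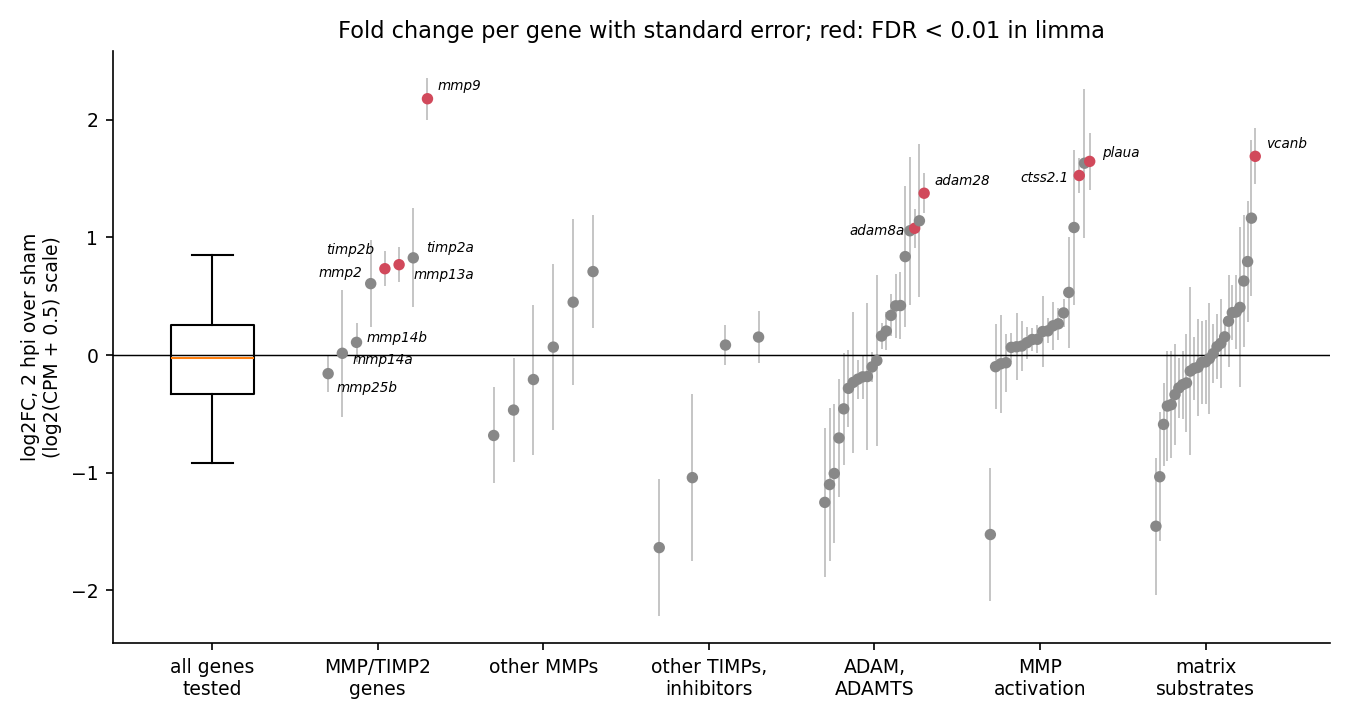
Log2FC of 2 hpi over sham on the log2(CPM + 0.5) scale (vertical axis) with its SE for tested genes of the MMP and TIMP2 set and of 5 related lists, in order of size within a list, with genes at FDR below 0.01 in red. The box shows the quartiles of all 16085 genes tested and its whiskers the 5th and 95th percentiles. Outside the set, 5 genes are labelled in red, all above 0, and 0 are in the lists of other MMPs and of other inhibitors.

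As a description of what else varied like the 2 secreted enzymes, the 11408 tested genes that averaged 5 CPM or more were ranked by the Pearson r of their log2 level over the 9 libraries. Nearest to *mmp9* were *mfsd6a* (r = 0.99), *b4galt5*, a galactosyltransferase (0.98), *optn*, the autophagy receptor optineurin (0.98), *itga4*, an integrin chain (0.98), and *sik2b*, a kinase (0.97). The mean of *mfsd6a* was 68.0 ± 8.51 CPM over the 6 sham libraries and 109.8 ± 4.53 CPM (SD) over the 3 libraries at 2 hpi. These values contain the step between the groups, and within the 6 sham libraries r to *mmp9* was 0.96 for *mfsd6a* and 0.81 for *sik2b*. The ranking used the sham libraries too, so a high r among them was favoured by the choice and is no separate evidence.

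Nearest to *mmp13a* were *rab27a*, a small GTPase of secretory vesicles (r = 0.98), *zgc:162952* (0.98), *il34*, a ligand of the Csf1 receptor (0.97), *als2a* (0.97) and *FO904861.5* (0.96). The cytokine gene *il34* averaged 64.6 ± 10.4 CPM over the 6 sham libraries and 98.0 ± 18.8 CPM (SD) over the 3 libraries at 2 hpi. Within the sham libraries alone, r to *mmp13a* was between 0.95 and 0.98 for these 5 genes, which were also picked with the sham libraries included. The lists of neighbours of *mmp9* and *mmp13a* shared 0 genes among their first 5.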

How the data were processed

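The table deposited by the authors holds 1 signal value per gene and library, a CPM scaled with TMM factors, for 22962 genes. According to the submitters' processing notes, cutadapt 1.9, STAR 2.5.2b, featureCounts 1.5.1, edgeR 3.20.1 and GRCz10 were used; exon reads were counted, and genes with near-zero counts had been removed. The table also holds the authors' mean levels, fold changes, p-values and FDR, which were not used. All values were whole multiples of 1 read (100% within 0.02 reads), so reads were recovered.

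Genes kept by filterByExpr (minimum count 10, minimum total count 15; 16085 genes) were fitted with limma 3.58.1 (R 4.3.3) and a variance trend on log2(CPM + 0.5), condition as the only factor, with Benjamini-Hochberg adjustment over all genes and FDR<0.01. This scale understates the change of low genes. Marker lists and correlations used exact permutation tests (Python 3.11.15, scipy 1.17.1). Alternatives were other pseudocounts, filters and scalings, edgeR 4.0.16, DESeq2 1.42.0, limma-voom, the replicate number as a block and fits without 1 library each. The script was tested on simulated data.

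Named were all 8 genes, list genes at FDR<0.01, the highest and lowest log2FC of each list at a mean of at least 5 CPM, the 5 genes most like *mmp9* and *mmp13a*, and markers; *mmp13b*, *SPOCK1*, *timp3* and *ctss2.2* were added after their values were seen. One called gene of the lists is counted but not reported here. Genes and lists were chosen with earlier results of these data known. Levels of different genes were not tested against each other, as no transcript lengths were used. Where a gene is described as low or as the largest part of a sum, this is in reads or CPM, not per length. Replicates were not near-duplicates (chi-square per gene of at least 9.62).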

Additional observations from a re-analysis of the deposited data

Results flagged for a closer look

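Among the sham libraries, *mmp13a* in replicate 6 stood apart from the others, at 3006.2 CPM where the other 5 lay between 1569.5 and 2073.6 CPM. Its gap to the nearest library was 0.649 of the whole range. Of 28 groups of values examined in this way, 1 stood out (3.57%), and chance gives about 1 in 20. The same library had the highest *mmp9* among the sham libraries, at 575.9 CPM. It also had the highest neutrophil, fibroblast and keratinocyte sums among them, at 8011, 195 and 97.5 CPM. Over the 6 sham libraries, r between *mmp13a* and the mean log2 level of the neutrophil list was 0.25 (exact permutation p = 0.697, adjusted p = 0.960). That mean weighs every marker alike, unlike the sum, for which r was not computed. The part of these sums in the value of sham 6 was not tested.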

How the results depend on the processing

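Over 20 alternatives, 443 genes called became 715 with DESeq2, 392 with edgeR, 912 at an FDR threshold of 0.05 and 232 to 493 when 1 library was left out (232 without 2 hpi replicate 4, 267 without 2 hpi replicate 1). Genes called lower were 101, but 222 with DESeq2, 64 with edgeR, 44 with limma-voom, 194 with library size alone, 61 with no filter on low counts and 326 at 0.05, and genes called higher were 342, but 586 at 0.05. Without 2 hpi replicate 4, 188 were called higher and 44 lower, and without 2 hpi replicate 1, 224 and 43. Without sham replicate 4 or 5, 65 and 62 were called lower. With library size alone, the median of all genes moved by -0.11, and 57.0% of the calls were higher, against 77.2%. Of the MMP and TIMP genes, 3 were called in most alternatives, 1 with no filter on low counts, and 1 to 3 when a library was left out (1 without 2 hpi replicate 1, and 2 without 2 hpi replicate 2, 2 hpi replicate 4 or sham replicate 4). The related lists kept 5 to 6 calls. Among single genes named, the sign changed only for ones that were not called, with the log2FC of *mmp14a* between -0.44 and 0.62. The differences of the neutrophil, fibroblast, radial glial and keratinocyte lists also changed sign, with lowest values of -0.02, -0.04, -0.03 and -0.16. The labels do not say that numbers pair samples, so pairing was not assumed. The correlation of deviations of same-numbered libraries was 0.131, 0.109 and 0.024 for 2 hpi replicates 1, 2 and 4. Of these, 0.131 and 0.109 were the highest for 2 hpi replicates 1 and 2, and the highest for replicate 4 was 0.027, with sham 3. These correlations do not decide whether the samples were paired. For its RT-qPCR, the study compared sham and injured samples made on the same day, some of them also used for RNA-seq. It gives no replicate numbers for them, so shared days could not be assigned. With a replicate block, 632 genes were called, with 3 of the MMP and TIMP genes and 6 of the related lists. Sham replicates 3, 5 and 6 have no 2 hpi library of the same number. They add nothing to the difference in that fit, which rests on replicates 1, 2 and 4. In that fit, the log2FC was 2.36 for *mmp9* (SE 0.12), 0.92 for *mmp13a* (SE 0.10) and 0.98 for *timp2b* (SE 0.12). Levels between genes per length were not run. Why these counts moved was not tested.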
